A study of Mus musculus with 6 samples.

Results

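The collagen genes of 3 mouse embryonic fibroblast (MEF) lines that lack components of the circadian clock were examined. A gene was taken as a member when its mouse symbol, mapped from the Entrez Gene ID of the count tables, was Col followed by a number, the letter a and a number. This rule found 44 genes among the 27179 in each count table, of which 25 reached a mean level of 100 normalized counts across the libraries and were tested. Collagens are proteins of the extracellular matrix whose chains wind around each other into a helix. Fibrillar collagens form the tensile fibers of skin, bone, tendon and cartilage, type IV collagens form the sheet of basement membranes, type VI collagens form beaded filaments beside cells, and FACIT collagens (fibril-associated collagens with interrupted helices) decorate fibers. Fibroblasts are the main source of type I collagen in connective tissue, and many collagens need chains from more than one gene, which is why pairs of genes were compared as well.

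All 6 libraries came from immortalized MEF of strain C57BL/6 with the genotype per1-/-, per2-/-, grown in DMEM with 10% FBS and no further treatment. The Cry/Per_KO line also carries cry1-/- and cry2-/-. The Per/Nr1d_KO line carries nr1d1-/- and nr1d2-/- in place of these. The Cry/Per/Nr1d_KO line carries all of them and is 1 clone obtained by CRISPR/Cas9 editing of Cry/Per_KO cells, whereas Per/Nr1d_KO came from earlier work that used the same Nr1d1 and Nr1d2 guides. None of the 6 libraries came from a line with an intact clock. By these genotypes, Cry/Per_KO against Cry/Per/Nr1d_KO addresses the presence of NR1D1 and NR1D2, which are nuclear receptors that repress transcription, and Per/Nr1d_KO against Cry/Per/Nr1d_KO addresses the presence of CRY1 and CRY2, which are repressors of CLOCK-BMAL1. Each line had 2 RNA preparations, so that the p-values measure the spread between preparations of a line, and a line or clone cannot be told apart from its genotype.

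For Cry/Per_KO and Cry/Per/Nr1d_KO, the deposited names of the count tables give the opposite line to the genotype labels. Groups follow the genotype labels here, and these 4 libraries are called CP-labelled (genotype label of Cry/Per_KO) and CPN-labelled (genotype label of Cry/Per/Nr1d_KO). All 3 pairwise comparisons are given: CP-labelled against CPN-labelled, Per/Nr1d_KO against CPN-labelled, and Per/Nr1d_KO against CP-labelled. If the labels of the 2 pairs were exchanged, every change in the first comparison would change its sign, and the other comparisons would exchange their reference. The transcripts of the 6 targeted genes were present in every library, the lowest level of any being 1004 normalized counts (Per2) and the highest 9337 (Nr1d1). Nr1d1 stood at 3158 and 3146 in the CPN-labelled libraries, at 9337 and 9249 in the CP-labelled libraries and at 5359 and 4838 in Per/Nr1d_KO. Cry1 was at 1698 and 1724, at 5323 and 5478, and at 1535 and 1592 in the same order. All 6 targeted genes were lower in both CPN-labelled libraries than in both CP-labelled libraries. NR1D1 and NR1D2 are known to repress Cry1 and Nr1d1, so that the levels of these genes go against the genotype labels of the 2 pairs and run in the direction of the names of the count tables. The study reports lower mRNA of Cry1, Nr1d1, Nr1d2, Per1 and Per2 in Cry/Per_KO than in Cry/Per/Nr1d_KO. That is the order under the names of the count tables and the opposite of the order under the genotype labels. A direction between these pairs is therefore one between libraries as labelled, here and in what follows. Library totals ran from 53764390 to 85927236 counts, and the correlation of log2 CPM between the libraries of a line was 0.998 in each line. Of 8 fibroblast markers, Vim was between 83457 and 159310 normalized counts, whereas Thy1 was at 0 to 6.22, and the summed level of the list was 608551 to 615291 in the CPN-labelled libraries, 549203 to 552099 in the CP-labelled libraries and 801453 to 812527 in Per/Nr1d_KO. Fn1 made up most of each sum, with 342580 to 354159 in the CP- and CPN-labelled libraries and 656125 and 639512 in Per/Nr1d_KO. Of the 6 fibroblast markers tested, Fn1 and Fbn1 were higher in Per/Nr1d_KO than in the CPN-labelled libraries and Vim, Pdgfra, Pdgfrb and S100a4 were lower, with a median change of -1.10, and against the CP-labelled libraries 2 were higher and 3 lower, with a median of -0.93. In the CP-labelled against the CPN-labelled libraries 0 were higher and 2 lower, S100a4 (-1.14) and Fbn1 (-0.82). With the median change of the tested genes on each gene's chromosome subtracted, the calls of S100a4 (-0.49) and Fbn1 (-0.62) between the CP- and CPN-labelled libraries, of Vim (-0.75) and of Fn1 (0.63 and 0.62 over the CPN- and CP-labelled libraries) were lost. Of 4 leukocyte markers, Ptprc reached at most 3.95 and Adgre1 at most 1.27, Csf1r was at 49.7 and 71.1 in the CPN-labelled libraries, at 73.5 and 44.2 in the CP-labelled libraries and at 45.6 and 47.3 in Per/Nr1d_KO, and Cd68, the 1 tested, was at 276 and 258 in Per/Nr1d_KO and at 109 to 161 in the other libraries and was higher in Per/Nr1d_KO in both comparisons (1.14, SE 0.13, adjusted p = 1.6e-06, and 0.81, SE 0.13, adjusted p = 3.4e-05). Of 5 epithelial markers, none of which was tested, Epcam reached at most 33.3, and Cdh1 was at 100.1 and 110.5 in Per/Nr1d_KO and at 7.99 to 27.8 in the other libraries.

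Levels are given as normalized counts, that is counts scaled by edgeR's TMM factors to the mean effective library size. A gene was called when the Benjamini-Hochberg adjusted p of edgeR's quasi-likelihood test was under 0.05 and the log2 fold change lay beyond 0.81 in either direction, which is the limit on the fold in what follows. Changes are log2 fold changes with their standard error (SE) and n = 2 libraries per line. Positions are in GRCm38.p6, the assembly of mm10, and start sites are those of RefSeq. A gene span can extend past the start site used for a promoter stretch. The start site was 20815067 for Col5a3, 141475419 for Col4a5 and 141474076 for Col4a6. The span of Col4a6 ends at 141474095. For these 3 genes, the end of the stretch next to the start thus lies within the span of the gene. In bulk RNA, fewer cells of a type and less RNA per cell cannot be told apart.

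The promoter stretches of 4 collagen genes are shown as examples of a pair of neighbors with different patterns of levels and of fibrillar genes with large changes. Col4a5 and Col4a6, which encode type IV collagen chains, are transcribed away from each other from start sites 1343 bases apart on chromosome X, and their levels were highest in different lines. Col3a1 and Col5a3 are the tested fibrillar genes whose changes were over 5 on the log2 scale in Per/Nr1d_KO against both other lines. The sequences are the RefSeq windows of GRCm38.p6 upstream of the start site, and for Col4a5 the 34 bases next to the start are left out. Capitals mark matches, on either strand, to CACGTG (the E-box bound by CLOCK-BMAL1), AGGTCA (the core of the element bound by NR1D and ROR receptors), the letters CCAAT of the CCAAT box, the letters TATAAA of a TATA box and the letters GGGCGG of a GC box. A match is not known to be a bound site.
Col4a5, chrX:141475169-141475384, plus strand: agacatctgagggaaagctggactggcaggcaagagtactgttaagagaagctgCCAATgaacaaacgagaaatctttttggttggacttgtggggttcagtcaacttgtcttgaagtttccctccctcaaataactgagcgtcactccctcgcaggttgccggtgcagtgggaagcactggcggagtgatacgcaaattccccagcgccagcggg
Col4a6, chrX:141474077-141474326, minus strand: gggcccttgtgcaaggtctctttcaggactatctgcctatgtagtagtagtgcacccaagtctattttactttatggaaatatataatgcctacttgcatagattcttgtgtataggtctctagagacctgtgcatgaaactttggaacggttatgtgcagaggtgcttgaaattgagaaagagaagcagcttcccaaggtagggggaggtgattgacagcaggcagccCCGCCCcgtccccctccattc
Col3a1, chr1:45311288-45311537, plus strand: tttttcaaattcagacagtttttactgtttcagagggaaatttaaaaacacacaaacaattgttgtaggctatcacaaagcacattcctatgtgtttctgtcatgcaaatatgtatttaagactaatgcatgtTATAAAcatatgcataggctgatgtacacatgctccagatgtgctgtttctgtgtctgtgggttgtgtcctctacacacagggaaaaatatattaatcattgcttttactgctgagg
Col5a3, chr9:20815068-20815317, minus strand: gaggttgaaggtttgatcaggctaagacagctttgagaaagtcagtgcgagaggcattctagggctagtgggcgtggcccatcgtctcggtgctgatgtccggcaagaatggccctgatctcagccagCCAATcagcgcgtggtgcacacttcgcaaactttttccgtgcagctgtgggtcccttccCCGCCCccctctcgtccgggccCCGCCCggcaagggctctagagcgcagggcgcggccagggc

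In these stretches, Col4a5 held CCAAT 196 bases before the start, Col4a6 held GGGCGG on the other strand 21 bases before it, and Col3a1 held TATAAA 117 bases before it. Col5a3 held CCAAT 122 bases before the start and GGGCGG on the other strand 63 and 41 bases before it. Distances are from the RefSeq start site, and the match at 41 bases lies within the gene span given below for Col5a3. Part of the Col4a6 match at 21 bases lies within the span of Col4a6. RefSeq windows of 250 bases before to 50 bases after a start site were matched for 35 of the 44 genes. CACGTG was in the windows of 0 of these 35 genes and in 7.15% of the 32851 windows of all genes. AGGTCA was found for 8 of the 35 genes and in 16.3% of all windows, CCAAT for 13 and in 37.4%, TATAAA for 5 and in 13.6%, and GGGCGG for 22 and in 35.7%. Some genes have more than 1 window, and the letters alone are a description of these windows and not of bound sites.

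Collagen transcripts took 1.29% and 1.19% of the counts in the CPN-labelled libraries, 1.08% and 1.12% in the CP-labelled libraries, and 2.64% and 2.67% in Per/Nr1d_KO cells. Per kilobase of exon, the scale on which levels of different genes can be compared, fibrillar collagens made up 65.8% and 64.4% of all collagen in the CPN-labelled libraries, 65.6% and 66.3% in the CP-labelled libraries and 83.0% and 83.4% in Per/Nr1d_KO. Per/Nr1d_KO thus held the larger fibrillar share, and the ranges of the other lines overlapped. The basement membrane share was 13.7% and 13.9%, 11.9% and 12.0%, and 4.64% and 4.69% in the same order. The beaded filament share was 11.5% and 11.9%, 8.22% and 7.92%, and 8.30% and 7.93%. FACIT collagens took 5.47% and 5.99%, 8.80% and 8.40%, and 2.81% and 2.80%, and the short-chain collagens took 3.33% and 3.61%, 5.32% and 5.14%, and 0.625% and 0.628%. Multiplexin, anchoring fibril and transmembrane collagens each stayed under 1% in every library. These shares are descriptions with no test.

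**Figure D1:**
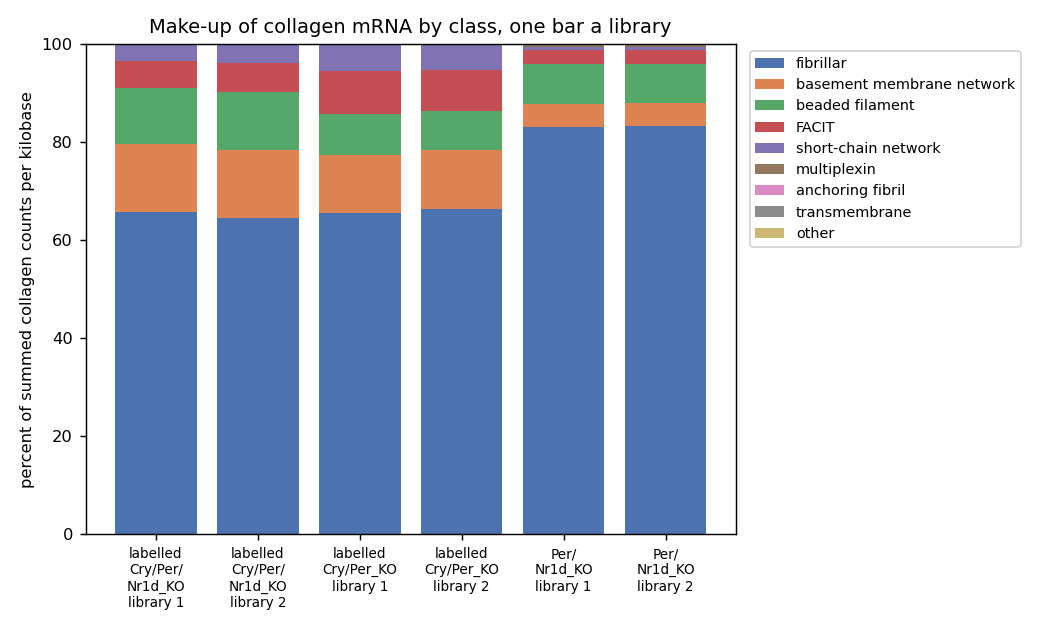
Stacked bars show, for each of the 6 libraries, the percent of summed collagen counts per kilobase of exon taken by each collagen class. The fibrillar part is 83.0% and 83.4% in the Per/Nr1d_KO libraries and between 64.4% and 66.3% in the other 4.

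The order of single genes also differed. Per kilobase, Col1a1 led in the CPN-labelled libraries with 38783 and 34649 counts per kilobase, followed by Col1a2 with 32018 and 28346 and Col5a2 with 14241 and 13475. In the CP-labelled libraries, Col1a2 led with 37319 and 39826, ahead of Col1a1 with 21256 and 23057 and Col5a2 with 11219 and 11589. In Per/Nr1d_KO, Col1a1 led with 105892 and 103885, and Col5a2 with 55842 and 59282 and Col1a2 with 56433 and 57288 followed at levels whose ranges overlapped. Col2a1, the cartilage collagen, was the fifth in Per/Nr1d_KO with 11388 and 11423 per kilobase, and at 2.40 and 3.27 in the CP-labelled libraries.

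Of the 25 collagen genes tested, 22 were called in at least 1 comparison and 7 in all 3. Col12a1, Col4a1 and Col4a2 were called in none. The highest mean was in Per/Nr1d_KO for 14 genes, in the CP-labelled libraries for 6 and in the CPN-labelled libraries for 5, and the lowest was in the CP-labelled libraries for 14. Between the CP-labelled libraries and the CPN-labelled libraries, 5 collagen genes were higher and 9 lower in the former, that is 56.0% of those tested, beside 16.8% of all 11934 genes tested (7.86% higher and 8.95% lower). Between Per/Nr1d_KO and the CPN-labelled libraries, 11 were higher and 6 lower in Per/Nr1d_KO, or 68.0%, beside 20.7% of all genes (11.3% higher and 9.35% lower). Between Per/Nr1d_KO and the CP-labelled libraries, 12 were higher and 6 lower, so that 18 of 25 were called, beside 29.0% of all genes (15.2% higher and 13.8% lower). The median size of the log2 fold change over the tested members was 1.11, 1.51 and 1.79 in these comparisons, and over all genes 0.34, 0.34 and 0.46. These comparisons share libraries, so their counts are not independent, and the 25 exclude 19 members below the limit on the mean, while Col20a1, Col6a4 and Col17a1 passed it through the mean of 1 line alone.

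**Figure D2:**
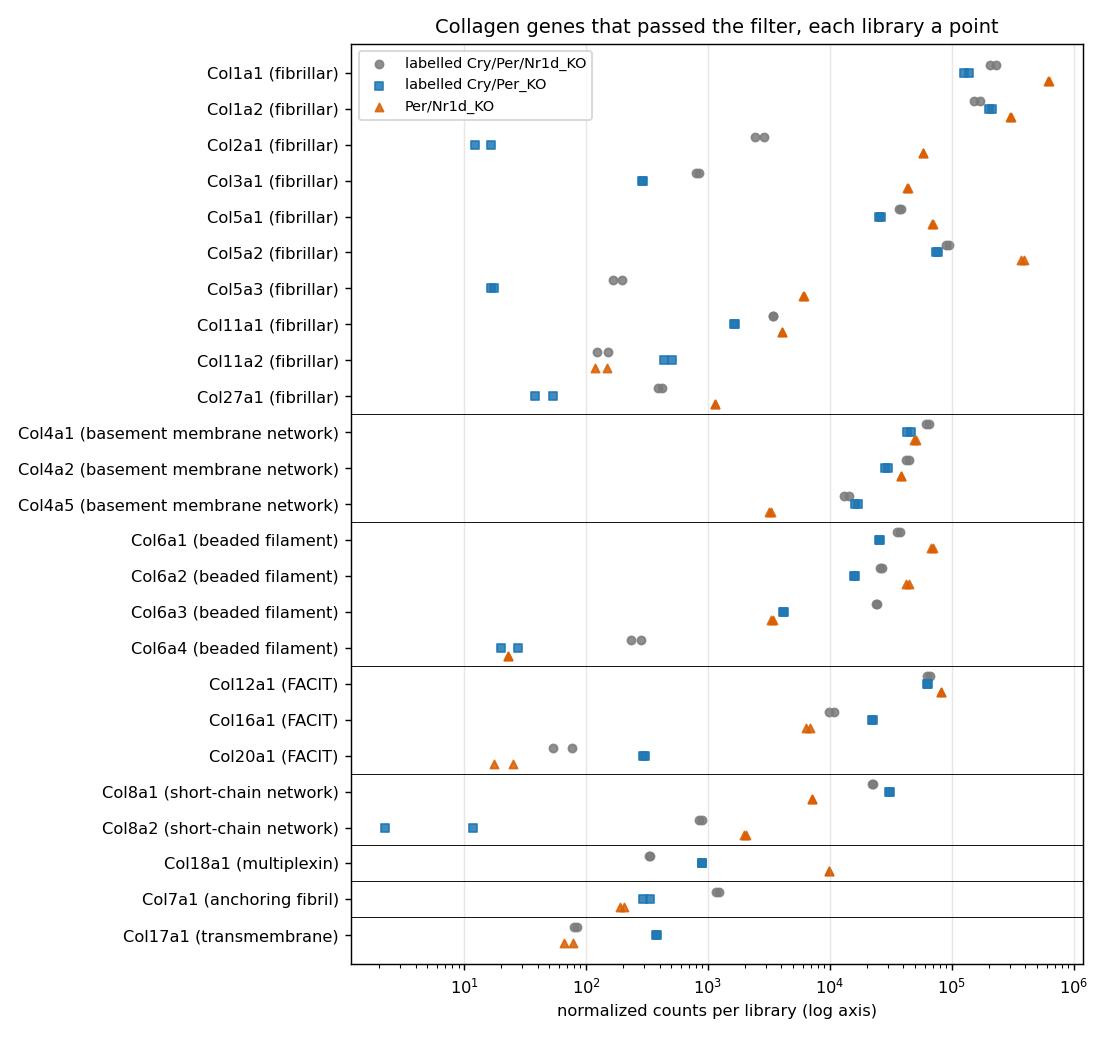
Normalized counts (log axis) of the 25 tested collagen genes, grouped by class, with a point for each library. The points of a line lie close together, and Col2a1, Col3a1, Col5a3 and Col8a2 are spread over the widest range between lines, Col2a1 from 12.2 to 58302.

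Most fibrillar collagens were higher in Per/Nr1d_KO than in either other line. Of 10 tested, 8 were higher and 0 lower than in the CPN-labelled libraries, with a median log2 fold change of 1.51, and 8 were higher and 1 lower than in the CP-labelled libraries, with a median of 2.29. The CP-labelled libraries had 1 higher and 5 lower than the CPN-labelled libraries, with a median change of -0.89. Over all genes tested, 11.3% were higher and 9.35% lower, 15.2% and 13.8%, and 7.86% and 8.95% in the same order of comparisons.

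Col1a1 (chr11:94936224-94953042), which encodes the more abundant chain of type I collagen, was at 229985 and 205471 normalized counts in the CPN-labelled libraries, at 126050 and 136728 in the CP-labelled libraries and at 627940 and 616037 in Per/Nr1d_KO. The 3 lines did not overlap. In Per/Nr1d_KO it rose by 1.51 (SE 0.060, adjusted p = 2.9e-12) over the CPN-labelled libraries and by 2.24 (SE 0.061, adjusted p = 2.6e-14) over the CP-labelled libraries. The change of -0.73 between the other lines did not pass the limit on the fold, and it reached -0.81 and was called without replicate 2 of the CPN-labelled libraries. Col1a2 (chr6:4505618-4541543), its partner chain, was at 171231 and 151595, at 199583 and 212990, and at 301804 and 306377 in the same order of lines. Here the CP-labelled libraries were above the CPN-labelled libraries, opposite to Col1a1, with a change of 0.35 that was not called. Per/Nr1d_KO was the highest for both genes. Col1a2 rose by 0.91 (SE 0.058, adjusted p = 1.1e-09) over the CPN-labelled libraries, and edgeR's glmTreat, which tests against that limit, gave an adjusted p of 0.068 for it. Over the CP-labelled libraries its change was 0.56 and was not called, whereas it was 0.97 and called once the median of -0.41 over chromosome 6, which holds Col1a2, was subtracted. Per kilobase, the ratio of Col1a1 to Col1a2 was 1.211 and 1.222 in the CPN-labelled libraries, 0.570 and 0.579 in the CP-labelled libraries and 1.88 and 1.81 in Per/Nr1d_KO.

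Col2a1 (chr15:97975602-98004724), the main collagen of cartilage, was at 2859 and 2427 normalized counts in the CPN-labelled libraries, at 12.2 and 16.7 in the CP-labelled libraries (28 counts in both together) and at 58125 and 58302 in Per/Nr1d_KO. It was lower in the CP-labelled libraries than in the CPN-labelled libraries, with a change of -7.49 (SE 0.14, adjusted p = 2.9e-15), and Per/Nr1d_KO was higher than the latter by 4.46 (SE 0.066, adjusted p = 2.6e-17). The difference of Per/Nr1d_KO from the CP-labelled libraries was called as well, and the scaled sum of counts of Per/Nr1d_KO was 3990 times that of the CP-labelled libraries, with an exact 95% interval from 2760 to 6000 that covers counting error only. Of 5 chondrocyte markers, Hapln1 was at 0 in every library and Matn1 at no more than 1.27. Acan, a cartilage proteoglycan, was at 313 and 287, at 0 and 0.982, and at 87.5 and 87.6 in the same order, and Sox9, a transcription factor of cartilage, was at 1654 and 1901, at 1944 and 2075, and at 667 and 563. Comp, a cartilage matrix protein, was at 34.6 and 18.9, at 22.3 and 26.5, and at 52.0 and 45.0, and was highest in Per/Nr1d_KO. The summed level of the list, most of it from Sox9, was 2002 to 2207, 1967 to 2102, and 696 to 807. Only Acan and Sox9 of the 5 were tested, and Sox9 was lower in Per/Nr1d_KO than in either other line. Acan passed the limit on the mean through the CPN-labelled libraries alone, so that its lower levels in the other lines were fixed by the filter. It was called higher in Per/Nr1d_KO than in the CP-labelled libraries, where it had 1 count in both together.

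Col3a1 (chr1:45311538-45349706), which forms fibers with type I collagen in soft tissue, was at 836 and 801 normalized counts in the CPN-labelled libraries, at 289 and 296 in the CP-labelled libraries and at 42810 and 43797 in Per/Nr1d_KO. Per/Nr1d_KO exceeded them by 5.72 (SE 0.053, adjusted p = 3.4e-19) and 7.21 (SE 0.060, adjusted p = 1.7e-19), and the CP-labelled libraries were lower than the CPN-labelled libraries, with a change of -1.49 (SE 0.068, adjusted p = 4.7e-11). The gene lies 24624 bases from Col5a2 on chromosome 1, and 1.44% of its exon bases overlap another gene on the same strand. Col5a2 was at 94347 and 89269, at 74324 and 76776, and at 369952 and 392741. Its rise in Per/Nr1d_KO was 2.05 (SE 0.051, adjusted p = 1.1e-14) and 2.34 (SE 0.052, adjusted p = 2.2e-15), so the neighbors rose together but by different amounts, and per kilobase the ratio of Col3a1 to Col5a2 went from 0.0106 and 0.0107 in the CPN-labelled libraries and 0.00464 and 0.00458 in the CP-labelled libraries to 0.138 and 0.133 in Per/Nr1d_KO. The Col5a2 change of -0.28 between the CP- and CPN-labelled libraries was not called.

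Type V collagen sets fiber diameter and is made of chains from Col5a1, Col5a2 and Col5a3. Col5a1 was at 37854 and 36586 normalized counts in the CPN-labelled libraries, at 25081 and 26399 in the CP-labelled libraries and at 70289 and 68814 in Per/Nr1d_KO. It rose in Per/Nr1d_KO by 0.90 (SE 0.044, adjusted p = 4.3e-11) and 1.43 (SE 0.045, adjusted p = 1.3e-13). Of its exon bases, 2.50% overlap genes on the opposite strand. Col5a3 (chr9:20770050-20815117), the least abundant of the type V genes, was at 197 and 167, at 16.7 and 17.7, and at 6005 and 6094. It was lower in the CP-labelled libraries than in the CPN-labelled libraries, with a change of -3.40 (SE 0.18, adjusted p = 2.9e-10), and higher in Per/Nr1d_KO by 5.05 (SE 0.078, adjusted p = 4e-17) and 8.45 (SE 0.11, adjusted p = 7.3e-18). Per kilobase, the ratio of Col5a1 to Col5a2 was 0.316 and 0.323, 0.266 and 0.271, and 0.150 and 0.138, so it was lowest in Per/Nr1d_KO.

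Type XI collagen, a minor partner of type II fibers, has chains from Col11a1 and Col11a2. These moved in opposite directions between the CP-labelled libraries and each of the other lines. Neither was called between Per/Nr1d_KO and the CPN-labelled libraries, with changes of 0.24 and -0.02. Col11a1 was at 3384 and 3417 normalized counts in the CPN-labelled libraries, at 1659 and 1627 in the CP-labelled libraries and at 4018 and 4019 in Per/Nr1d_KO. It was lower in the CP-labelled libraries than in the CPN-labelled libraries, with a change of -1.05 (SE 0.051, adjusted p = 1e-10), and 1.29 (SE 0.051, adjusted p = 2.5e-12) higher in Per/Nr1d_KO than in the CP-labelled libraries. The 577 tested genes of chromosome 3, which holds Col11a1, had medians of -0.65 and 0.88 in these comparisons, and after subtraction of the medians its changes were -0.40 and 0.41 and were no longer called. Col11a2 was at 151 and 123, at 437 and 506, and at 119 and 149. The CP-labelled libraries were above both other lines, by 1.77 (SE 0.14, adjusted p = 1.4e-08) over the CPN-labelled libraries, and the change of Per/Nr1d_KO from them was -1.79 (SE 0.14, adjusted p = 6.4e-09). Between Per/Nr1d_KO and the CPN-labelled libraries the ranges overlapped. The ratio of Col11a1 to Col11a2 per kilobase was 18.4 and 22.8, 3.12 and 2.65, and 27.7 and 22.2.

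Col27a1 (chr4:63214009-63334991), a fibrillar collagen of cartilage, was at 385 and 416 normalized counts in the CPN-labelled libraries, at 37.8 and 54.0 in the CP-labelled libraries and at 1137 and 1144 in Per/Nr1d_KO. Its changes were -3.11 (SE 0.15, adjusted p = 6.1e-11) between the former lines, 1.51 (SE 0.091, adjusted p = 5.8e-10) in Per/Nr1d_KO over the CPN-labelled libraries and 4.62 (SE 0.13, adjusted p = 3.7e-14) over the CP-labelled libraries. Col24a1, the remaining fibrillar gene, had a mean of 72.1 over the libraries and was not tested. It was at 6.22 and 5.55, 2.23 and 2.95, and 213 and 203, so that nearly all of its counts came from Per/Nr1d_KO, and it is named after its values were seen.

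**Figure D3:**
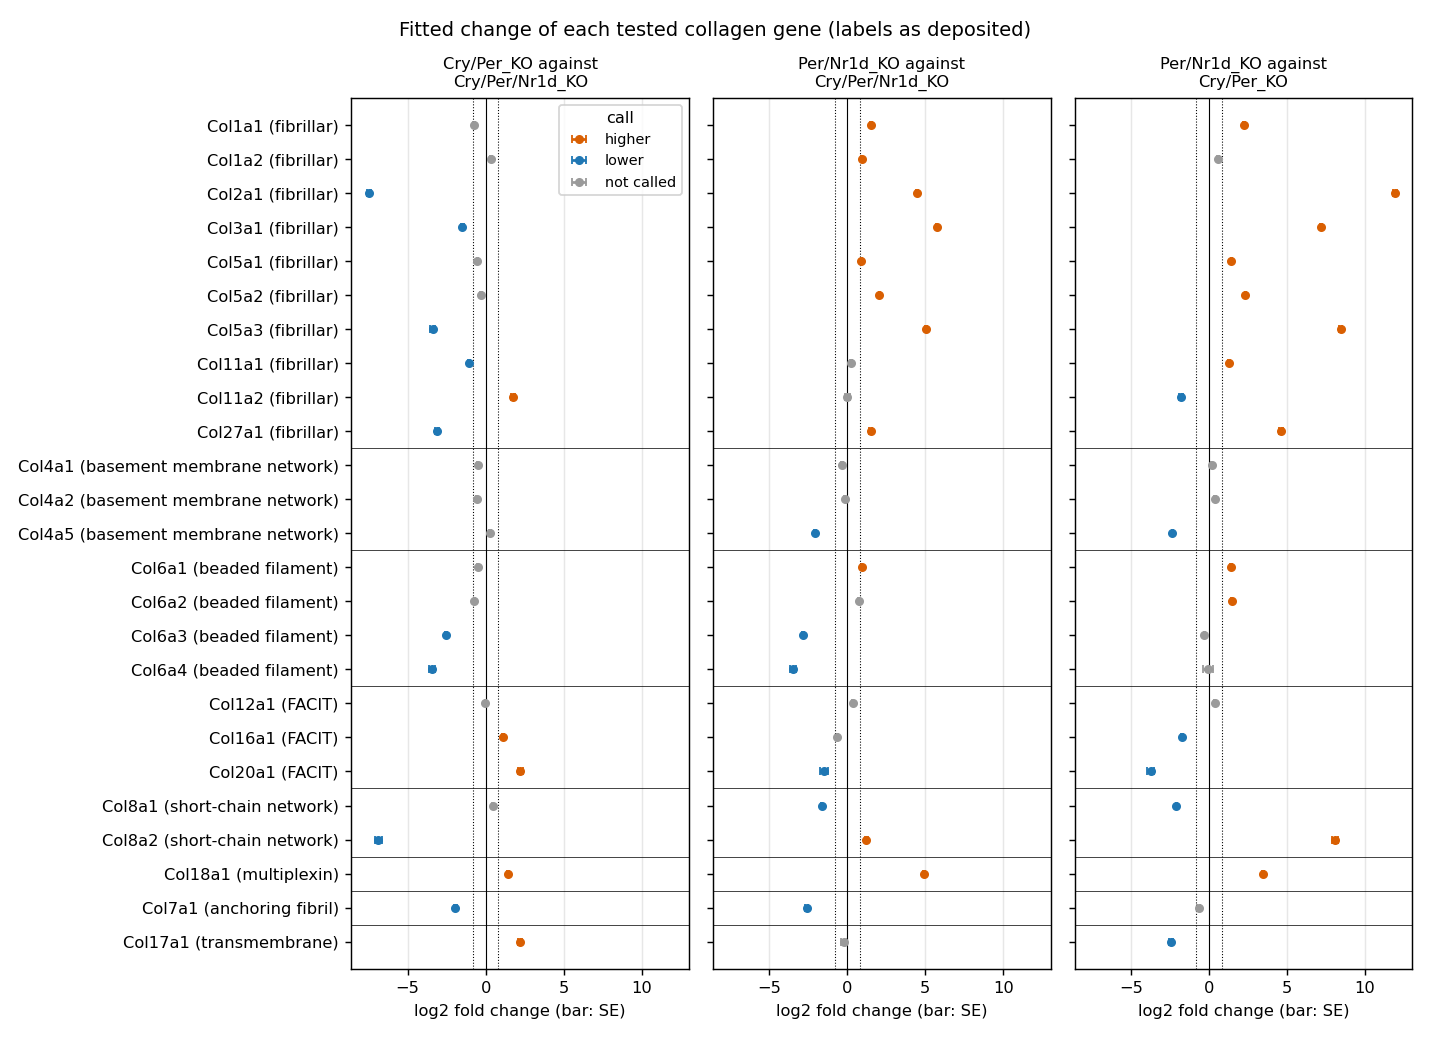
Log2 fold changes of the 25 tested collagen genes in the 3 comparisons, with bars for the SE and dotted lines at -0.81 and 0.81. Fibrillar genes lie to the right of the line at 0 in both Per/Nr1d_KO panels except Col11a2, whose changes there are -0.02 and -1.79.

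Of the 6 basement membrane collagens, 3 were tested, and 0, 1 and 1 of them were called in the 3 comparisons (0%, 33.3% and 33.3%), beside 16.8%, 20.7% and 29.0% of all genes, by edgeR's quasi-likelihood test. Col4a1 and Col4a2, which encode the chains of the common type IV molecule, are transcribed from opposite strands. Their first exons overlap in the 22 bases between the RefSeq start sites. The gap between their gene spans is -85 bases, so that the spans overlap over more bases. The 22 bases, read on the plus strand, are shown because both start sites fall at their ends, and capitals mark GGGCGG.
Col4a1 and Col4a2, chr8:11312805-11312826: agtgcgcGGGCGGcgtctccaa

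Col4a1 was at 65399 and 60979 normalized counts in the CPN-labelled libraries, at 42686 and 45857 in the CP-labelled libraries and at 48915 and 50368 in Per/Nr1d_KO. Col4a2 was at 44046 and 41866, at 28060 and 29898, and at 38191 and 38171. Both were highest in the CPN-labelled libraries and lowest in the CP-labelled libraries, and the lines did not overlap. The changes between these lines were -0.51 for Col4a1 and -0.57 for Col4a2, with adjusted p of 1.9e-07 and 2.7e-08, and neither passed the limit on the fold. In Per/Nr1d_KO the changes were -0.35 and -0.17 from the CPN-labelled libraries and 0.17 and 0.40 from the CP-labelled libraries. The ratio of Col4a1 to Col4a2 per kilobase ranged from 1.249 to 1.496 over the 6 libraries.

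Col4a5 (chrX:141475370-141689236), a type IV chain whose loss causes hereditary kidney disease, was at 14189 and 13115 normalized counts in the CPN-labelled libraries, at 15981 and 16846 in the CP-labelled libraries and at 3173 and 3304 in Per/Nr1d_KO. It fell in Per/Nr1d_KO, with changes of -2.07 (SE 0.052, adjusted p = 1.2e-14) and -2.34 (SE 0.053, adjusted p = 2.4e-15). Its neighbor Col4a6, whose promoter stretch is printed above, was too low to be tested and went the other way, with 14.2 and 8.89, 25.6 and 38.3, and 74.8 and 82.1. The ratio of Col4a5 to Col4a6 per kilobase was 1016 and 1502 in the CPN-labelled libraries, 635 and 448 in the CP-labelled libraries and 43.2 and 41.0 in Per/Nr1d_KO. Col4a3 and Col4a4, which form another head-to-head pair, stayed between 9.82 and 67.7 normalized counts, and 5.65% of the exon bases of Col4a3 overlap a gene on the opposite strand.

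In Per/Nr1d_KO against the CPN-labelled libraries, genes of the type VI collagen chains moved in different directions. Between the CP- and CPN-labelled libraries, the changes of Col6a1 (-0.51) and Col6a2 (-0.73) were not called and had the sign of those of Col6a3 and Col6a4. Col6a1 was at 37384 and 35144 normalized counts in the CPN-labelled libraries, at 25210 and 25834 in the CP-labelled libraries and at 69515 and 67301 in Per/Nr1d_KO. Col6a2, which lies 85161 bases away, was at 26736 and 25833, at 15892 and 15813, and at 44792 and 42080. Both were highest in Per/Nr1d_KO. Col6a1 rose there by 0.92 (SE 0.045, adjusted p = 4.8e-11) and 1.42 (SE 0.046, adjusted p = 1.9e-13), and Col6a2 by 1.45 (SE 0.045, adjusted p = 1.2e-13) over the CP-labelled libraries, while its change of 0.72 over the CPN-labelled libraries was not called. Their ratio per kilobase stayed between 1.99 and 2.39.

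Col6a3 (chr1:90766860-90844001), which encodes the largest chain and lies on chromosome 1, was at 24285 and 23837 normalized counts in the CPN-labelled libraries, at 4104 and 4158 in the CP-labelled libraries and at 3292 and 3408 in Per/Nr1d_KO. It was thus highest in the CPN-labelled libraries, with changes of -2.54 (SE 0.045, adjusted p = 1.6e-15) and -2.84 (SE 0.045, adjusted p = 5.1e-17) in the other lines. The ratio of Col6a1 to Col6a3 per kilobase rose from 4.07 and 3.90 over 16.3 and 16.4 to 55.9 and 52.3, a difference of more than an order of magnitude between chains of 1 molecule. Col6a4, which encodes a chain similar to that of Col6a3, was at 280 and 234, at 20.03 and 27.49, and at 22.8 and 22.9, with changes of -3.42 (SE 0.20) and -3.49 (SE 0.19). It passed the limit on the mean through the CPN-labelled libraries alone, so that these differences were fixed by the filter. Of its exon bases, 3.39% overlap genes on the opposite strand. Col6a5 and Col6a6 stayed at or below 5.89 normalized counts.

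**Figure D4:**
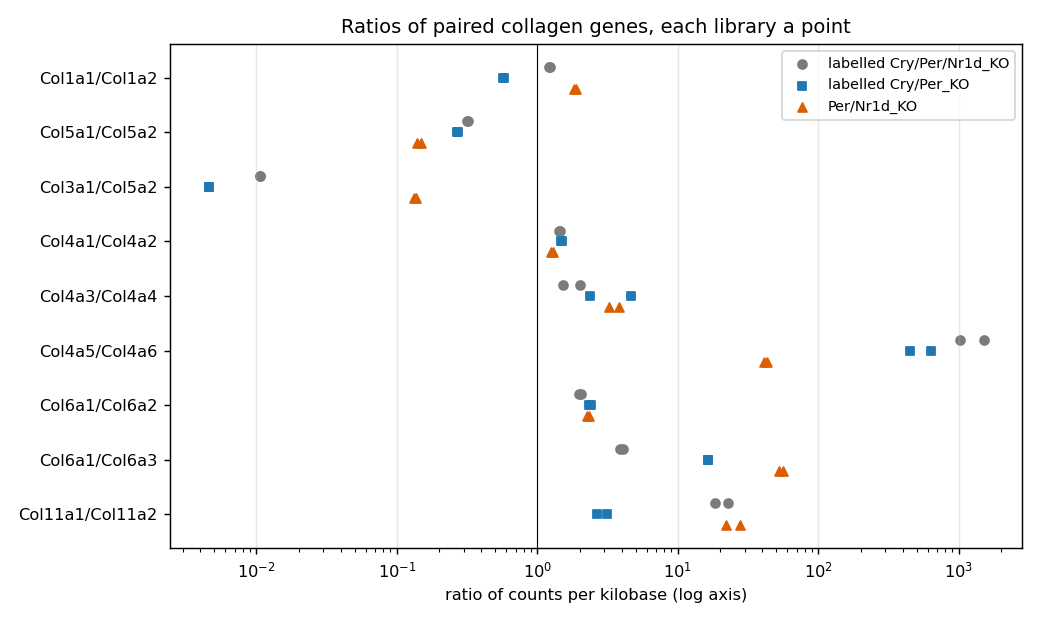
Ratios of counts per kilobase (log axis) for 9 pairs of collagen genes, with a point for each library. Col4a1/Col4a2 and Col6a1/Col6a2 stay within a narrow range, and Col6a1/Col6a3 and Col3a1/Col5a2 differ between lines by far more than within them. Col4a5/Col4a6 does so for Per/Nr1d_KO against the other lines only.

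Among FACIT collagens, Col12a1, which is found on fibers of dense connective tissue, was the most abundant and differed least. It was at 62390 and 65539 normalized counts in the CPN-labelled libraries, at 63722 and 62655 in the CP-labelled libraries and at 81462 and 80613 in Per/Nr1d_KO. The former lines overlapped, and the changes of Per/Nr1d_KO, 0.34 and 0.36, were under the limit on the fold. The median over chromosome 9, which holds Col12a1, was -0.84 between Per/Nr1d_KO and the CP-labelled libraries, and with it subtracted the change of Col12a1 was 1.20 and was called. Col16a1 was at 10864 and 9810, at 21917 and 22686, and at 6397 and 6908. It rose by 1.11 (SE 0.054, adjusted p = 8.9e-11) in the CP-labelled libraries over the CPN-labelled libraries and was lower in Per/Nr1d_KO than in the former, with a change of -1.74 (SE 0.055, adjusted p = 1.5e-13). Col20a1 was at 53.3 and 76.6, at 295 and 305, and at 17.7 and 25.2, with changes of 2.23 (SE 0.16), -1.51 (SE 0.26, adjusted p = 9.5e-05) and -3.74 (SE 0.20) in the comparisons in the order given above. It passed the limit on the mean through the CP-labelled libraries alone, so that the first and last of these were fixed by the filter. The other 6 FACIT genes were not tested. Of these, Col9a1 had 0 counts in every library, which allows up to 3 counts in each, and Col9a3 reached 110, with 6.07% of its exon bases overlapping a gene on the opposite strand.

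The short-chain collagens Col8a1 and Col8a2 encode the chains of type VIII collagen, a network-forming collagen of vessel walls and the cornea. Col8a1 was at 22258 and 22377 normalized counts in the CPN-labelled libraries, at 30244 and 30848 in the CP-labelled libraries and at 7152 and 7155 in Per/Nr1d_KO. It fell in Per/Nr1d_KO, with changes of -1.64 (SE 0.041, adjusted p = 1.2e-14) and -2.09 (SE 0.042, adjusted p = 6.5e-16). Col8a2 showed the reverse order, at 896 and 840, at 2.23 and 11.8, and at 1963 and 2057. It rose by 1.21 (SE 0.088, adjusted p = 5.5e-09) in Per/Nr1d_KO over the CPN-labelled libraries. Against the 14 counts in the CP-labelled libraries, the summed counts were 119 times higher in the CPN-labelled libraries (exact 95% interval 70.9 to 219) and 277 times higher in Per/Nr1d_KO (165 to 507), and both differences were called. These intervals cover counting error only, and the fitted changes went from -6.87 and 8.08 to -6.19 and 7.40 without replicate 1 of the CP-labelled libraries and to -8.53 and 9.74 without replicate 2. Per kilobase, Col8a1 was 21.1 and 22.6 times Col8a2 in the CPN-labelled libraries and 3.09 and 2.95 times in Per/Nr1d_KO. Col10a1, the collagen of hypertrophic cartilage, was not tested and stayed between 19.7 and 69.3.

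Col18a1 (chr10:77052178-77166530), a basement membrane collagen that is the source of endostatin, was at 331 and 325 normalized counts in the CPN-labelled libraries, at 898 and 886 in the CP-labelled libraries and at 9821 and 9868 in Per/Nr1d_KO. It rose in all 3 comparisons, by 1.44 (SE 0.067, adjusted p = 5.3e-11), 4.90 (SE 0.060, adjusted p = 3.7e-18) and 3.46 (SE 0.053, adjusted p = 3e-17). Col15a1, the other multiplexin, was not tested and reached at most 51.1. Col7a1 (chr9:108953586-108984875), which forms the anchoring fibrils below the epidermis, was at 1239 and 1152, at 332 and 294, and at 205 and 190. It was highest in the CPN-labelled libraries, with changes of -1.94 (SE 0.091, adjusted p = 6.5e-11) and -2.60 (SE 0.097, adjusted p = 1.5e-12) in the other lines. Col17a1 (chr19:47646341-47692042), a transmembrane collagen of epithelial hemidesmosomes, was at 79.9 and 84.4, at 373 and 385, and at 78.6 and 65.5. It was higher in the CP-labelled libraries than in the CPN-labelled libraries by 2.21 (SE 0.13), and Per/Nr1d_KO was lower than them, with a change of -2.42 (SE 0.13). It passed the limit on the mean through the CP-labelled libraries alone, so that these differences were fixed by the filter. The summed level of 5 epithelial markers, none of them tested, was 34.6 to 63.3, 17.7 to 24.5, and 136 to 140 in the same order of lines.

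The other members not tested stayed low. Of the 19, 6 were under 10 normalized counts in every library. Col22a1, a FACIT collagen of tissue junctions, was at 80.8 and 60.0 in the CPN-labelled libraries, at 5.57 and 6.87 in the CP-labelled libraries and at 1.27 and 0.789 in Per/Nr1d_KO, and it is named after its values were seen. With a limit of 10 on the mean, 37 members were tested, and 23, 25 and 26 of them were called in the 3 comparisons, beside 22.4%, 26.5% and 33.8% of all 14770 genes then tested. Without the limit on the fold, 24, 23 and 24 of the 25 tested members were called, beside 76.4%, 75.8% and 82.1% of all genes.

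Genes that fold, modify, cross-link or bind collagen were examined as a list of 57, of which 48 were tested. In the CP-labelled libraries against the CPN-labelled libraries, 7 were higher and 9 lower (33.3%). In Per/Nr1d_KO, 15 were higher and 6 lower than in the CPN-labelled libraries (43.8%), and 19 were higher and 9 lower than in the CP-labelled libraries (58.3%). The share over all genes was 16.8%, 20.7% and 29.0%. Among 5 cross-linking genes, 3 were higher and 1 lower in Per/Nr1d_KO in both comparisons. Loxl2 is among the 3 and passed the limit on the mean through Per/Nr1d_KO alone, so that its calls were fixed by the filter. Among 12 tested hydroxylation genes, 4 were higher and 1 lower in the CP-labelled libraries than in the CPN-labelled libraries. Of 9 tested fibril-associated genes, 1 was higher and 5 were lower in that same comparison.

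Serpinh1, the collagen chaperone of the endoplasmic reticulum, was at 55355 and 51689 normalized counts in the CPN-labelled libraries, at 29796 and 31043 in the CP-labelled libraries and at 69164 and 67449 in Per/Nr1d_KO, the order of lines seen for Col1a1. Its changes were -0.82 (SE 0.047, adjusted p = 5.7e-10), 0.35, which was not called, and 1.17 (SE 0.047, adjusted p = 2.9e-12). With the median of -0.27 over chromosome 7, which holds Serpinh1, subtracted, the first of these was -0.55 and was no longer called. P4hb, a subunit of prolyl hydroxylase, was at 50728 and 51170, at 56059 and 56477, and at 75766 and 75670 and was called in no comparison. Plod2, a lysyl hydroxylase, was at 6437 and 7099, at 19580 and 19398, and at 9291 and 9242, and rose by 1.53 (SE 0.049, adjusted p = 1.1e-12) in the CP-labelled over the CPN-labelled libraries. Creb3l1, a transcription factor of the secretory pathway that acts on type I collagen genes in bone, was at 1029 and 1081, at 1253 and 1201, and at 10942 and 9665, and rose in Per/Nr1d_KO by 3.29 and 3.07 (SE 0.066 and 0.065, adjusted p = 7.6e-16 and 1.2e-15).

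Lox, which begins the cross-linking of collagen, was at 22167 and 23039 normalized counts in the CPN-labelled libraries, at 53680 and 56401 in the CP-labelled libraries and at 187503 and 177268 in Per/Nr1d_KO, and it rose in all 3 comparisons, by 1.28, 3.01 and 1.73. Loxl2, a related enzyme, was at 11.5 and 11.1, at 16.7 and 13.7, and at 2538 and 2545, and rose in Per/Nr1d_KO by 7.79 and 7.38 (SE 0.13 for both). Loxl2 passed the limit on the mean through Per/Nr1d_KO alone, so that a difference of that line was fixed by the filter. Adamts14, which removes the amino-terminal propeptide of procollagen, was at 2216 and 2038, at 3387 and 3579, and at 683 and 677, and was lower in Per/Nr1d_KO, with changes of -1.65 and -2.36.

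Fmod, a small proteoglycan that binds fibrils, was at 134 and 147 normalized counts in the CPN-labelled libraries and at 759 and 703 in Per/Nr1d_KO, and had 4 counts in the CP-labelled libraries together. The summed counts of the former were 66.9 times (exact 95% interval 25.8 to 247) and of Per/Nr1d_KO 347 times (135 to 1280) those of the CP-labelled libraries. Itga11, a collagen-binding integrin chain of fibroblasts, showed the same order of lines with 1147 and 1138, 17.8 and 9.82, and 5825 and 5498, and its changes of -6.38, 2.31 and 8.69 were all called. Aspn, another small proteoglycan of fibrils, was at 2807 and 3337, at 318 and 319, and at 20.3 and 16.6, and Postn, a matricellular protein, was at 24867 and 26388, at 2450 and 2332, and at 7422 and 7318. Both were highest in the CPN-labelled libraries, and their changes of -3.27, -7.40 and -4.14 (Aspn) and -3.42, -1.80 and 1.62 (Postn) were all called. The last Postn change was 0.75 and no longer called once the median of 0.88 over chromosome 3, which holds Postn, was subtracted. Tnxb, a tenascin of fibrils, was at 179 and 183, at 529 and 516, and at 104 and 90.0, and Itga1, an integrin chain that binds type IV collagen, was at 1851 and 1888, at 1713 and 1624, and at 569 and 578. Tnxb changed by 1.53, -0.92 and -2.45 in the 3 comparisons, all called, and Itga1 was lower in Per/Nr1d_KO, with called changes of -1.70 and -1.54.

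**Figure D5:**
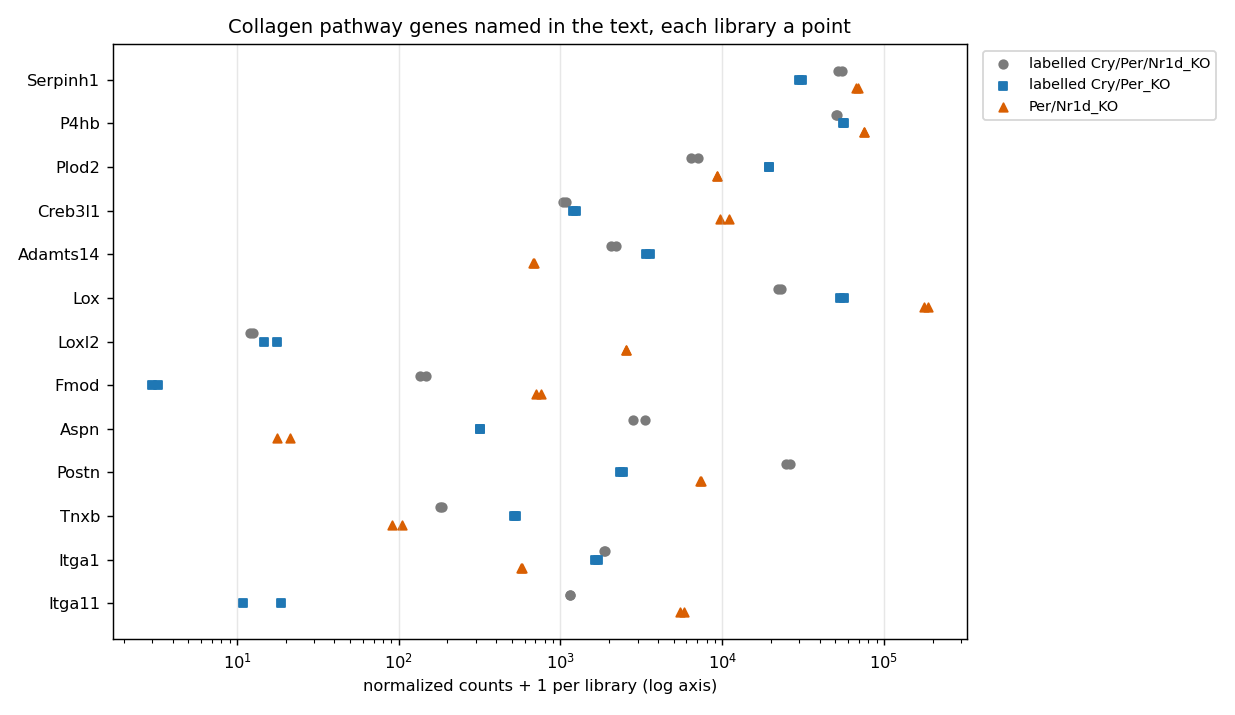
Normalized counts plus 1 (log axis) of the 13 collagen pathway genes named in the text, with a point for each library. Lox, Loxl2 and Creb3l1 are highest in Per/Nr1d_KO, and Aspn and Postn in the CPN-labelled libraries.

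Some markers of fat cells were highest in the same line as most fibrillar collagens. Of 4 adipocyte markers, 2 were tested. Both were higher in Per/Nr1d_KO than in either other line, but Pparg passed the limit on the mean through Per/Nr1d_KO alone, so that its difference was fixed by the filter. Pparg was at 887 and 851 normalized counts in Per/Nr1d_KO and at 0 to 1.11 in the other libraries, and Fabp4 was at 1468 and 1579 against 109 to 185. Adipoq was at 0 and 0.789 in Per/Nr1d_KO and at 0 to 6.87 in the other libraries, and Plin1 at no more than 1.11 in any library. The summed level was 175 to 194 in the CPN-labelled libraries, 116 to 148 in the CP-labelled libraries and 2355 to 2430 in Per/Nr1d_KO. The summed level of 5 osteoblast markers was 5630 to 5919, 3634 to 3728, and 6624 to 7131, most of it from Runx2, a transcription factor of bone. Runx2, the 1 tested, was higher in Per/Nr1d_KO than in the CP-labelled libraries by 0.87 (SE 0.051, adjusted p = 3e-10), or 0.72 and no longer called with its chromosome median subtracted. Alpl, a phosphatase of mineralizing cells, was at 71.9 and 75.5, at 7.79 and 2.95, and at 172 and 144. Sp7 and Bglap stayed at or below 12.7 and were highest in Per/Nr1d_KO as well, and Ibsp was at 0 in every library. None of the 4 endothelial and 3 skeletal muscle markers was tested. The summed endothelial level was 125 to 131 in the CPN-labelled libraries, 48.97 to 57.93 in the CP-labelled libraries and 113 to 138 in Per/Nr1d_KO, with Kdr at 91.4 and 93.3, at 18.9 and 23.6, and at 64.6 and 82.8, and with Tek at 35.5 and 48.1 in Per/Nr1d_KO and 5.55 to 11.5 in the other libraries. The defining endothelial genes Pecam1 and Cdh5 were at no more than 22.6 and 8.88. The summed muscle level was 76.6 to 82.6, 25.5 to 30.1, and 93.1 to 110.3, nearly all of it from Des, with Myod1 and Myog at no more than 2.22 and 1.58. The part of the 8 marker lists in the collagen differences was not tested.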

How the data were processed

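Poly-A RNA of 3 MEF lines, 2 libraries each, was sequenced from stranded libraries as single-end reads of 50 bases. Alignment by the authors was with STAR to mm10, and featureCounts gave the deposited counts, which are raw whole numbers per gene. The strand setting and the treatment of multi-mapping reads are not given in the sources used here, so overlaps and shared stretches of 50 bases between genes were computed from GENCODE vM21. The authors' DESeq2 1.22.2 tables, which hold fold changes and p-values of their own comparisons, were not used. Groups follow the genotype labels.

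Symbols came from RefSeq (25275 of 27179 genes, 93.0%) and exon lengths from RefSeq-linked transcripts. The main test was edgeR 4.0.16 in R 4.3.3 (TMM, 1 quasi-likelihood fit of 3 groups over all 6 libraries, Benjamini-Hochberg adjustment over the 11934 genes whose mean reached 100 normalized counts), and DESeq2 1.42.0 was an alternative. SE is the size of the log2 fold change divided by the square root of F. The biological coefficient of variation was 0.0393. Named genes were all tested members and, of the pathway list, Serpinh1, P4hb, Lox and the 3 largest rises and falls called in each comparison. The members and lists were chosen with earlier results of these data known. On data simulated for Cry/Per_KO against Cry/Per/Nr1d_KO (11924 genes), 197 of 197 changed genes tested were recovered with 0 false calls. The simulation gave all genes the same spread, set every change beyond the limit on the fold and held no shifts of whole chromosomes. It is a check that the code runs properly and cannot show the error rate for changes near the limit. Other alternatives were other scalings, filters and limits, leaving out each library, a replicate block, exchanged labels and subtraction of chromosome medians. Reads carry no molecular identifiers, so exact intervals and the floor of 3 counts cover counting error only.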

Additional observations from a re-analysis of the deposited data

How the results depend on the processing

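Of 75 single-gene results under 17 alternatives (1275 values), 1235 kept their direction and side of the threshold, 25 passed it in addition, 7 lost it and 8 changed sign. All 14, 17 and 18 collagen calls of the 3 comparisons were kept with DESeq2, with median-of-ratios size factors, with total counts, and with the compared groups alone. Subtraction of chromosome medians gave 13, 17 and 19 collagen calls, beside 13.6%, 19.3% and 22.8% of all genes. It kept 13, 17 and 17 of the main calls. By glmTreat there were 14, 16 and 18 collagen calls, beside 11.8%, 17.0% and 23.8% of all genes. The replicate numbers share only a number (correlations of deviations -0.21, -0.10 and -0.02), and the fit with the replicate number as a block gave the same 14, 17 and 18 collagen calls and 16, 21 and 28 pathway calls. Leaving out each library in turn gave 14 to 15, 17 and 18 collagen calls and 14 to 16, 21 to 22 and 27 to 29 pathway calls.

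For CP-labelled against CPN-labelled libraries, a mean of at least 10 or no filter gave 23 collagen calls (17 lower), beside 22.4% and 18.7% of all genes. No limit on the fold gave 24 (8 higher, 16 lower), beside 76.4%. The study's criteria (DESeq2, adjusted p under 1e-22) gave 12, of which 3 were higher, beside 9.63%. Over the 3 comparisons, these criteria lost calls of Col11a2 and Col20a1 only. Exchanged labels gave 9 higher and 5 lower. With a mean of at least 10 or no filter, 10 were lower in Per/Nr1d_KO than in CPN-labelled libraries and 19 higher than in CP-labelled ones. Over all genes, 26.5% and 22.5% were called in the former comparison in either direction, and 33.8% and 27.4% in the latter. Pathway calls without the limit on the fold were 40, 40 and 44 of 48, beside 76.4%, 75.8% and 82.1% of all genes. The larger counts follow from more genes tested or the lower limit. Of the 1275 values, which do not include exchanged labels, the 8 that changed sign had not been called. Col12a1 between CP- and CPN-labelled libraries went to 0.056 with total counts, and leaving out single libraries gave -0.053 to 0.018, the latter without CPN-labelled replicate 2. Col11a2 between Per/Nr1d_KO and CPN-labelled libraries ranged from -0.22 to 0.15 when single libraries were left out (0.15 and 0.11 without CPN-labelled or Per/Nr1d_KO replicate 1) and went to 0.021 with chromosome medians subtracted. Between Per/Nr1d_KO and CP-labelled libraries, Col6a4 ranged from -0.27 to 0.19 when single libraries were left out (0.19 without CP-labelled replicate 2) and went to 0.77 with chromosome medians subtracted, and Col7a1 to 0.17 with them subtracted. The cause was not tested. Depth limits the genes under 10 counts.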
